A study of Mus musculus with 24 samples.

Results

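The voltage-gated calcium and sodium channel genes were examined in the medial prefrontal cortex (mPFC) of mouse offspring at postnatal day 21. The set holds every row whose gene symbol starts with Cacn, or with Scn and a digit, the epithelial Scnn genes left out, with a mean of at least 5 normalized counts over the 12 libraries of each table. Of 24972 genes in each table, 40 symbols met the name and 35 also met the level. The 35 comprise 7 sodium channel pore genes, 4 sodium channel beta subunits, 3 L-type, 3 P/Q-, N- and R-type and 3 T-type calcium channel pores, 4 calcium channel beta subunits, 4 alpha2delta subunits and 7 genes of the Cacng family. The 5 symbols below the level were Cacna1f, Cacng1, Scn4a, Scn10a and Scn11a, with means of 0.341 to 2.27 normalized counts in males and 0.503 to 2.10 in females. All 35 genes passed the filter on low values in both sexes.

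The offspring were wild-type B6D2F1/J mice, from C57BL/6J dams and DBA/2J sires. Dams, and not the pups themselves, received a daily subcutaneous injection of saline (SAL) or of morphine (MO, 10 mg/kg after a few lower doses) from before breeding through gestation and nursing until weaning at day 21. Small litters were merged soon after birth, and the sources used here do not say which libraries share a dam. Each combination of sex and treatment had 6 libraries, 24 in all. A litter gave at most 1 pup of each sex. The study kept 6 SAL dams after merging, so each SAL litter gave both a male and a female library, as did most MO litters. P-values measure the spread between these libraries, and those over both sexes treat littermates as independent. Males and females were normalized in separate tables, so levels are compared only within a sex.

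Both channel families share a design in which 1 large protein forms the pore and smaller subunits set where the channel goes and how it gates. Sodium channels carry the upstroke of the action potential, and they are packed at the axon initial segment. Calcium channels turn depolarization into calcium entry, which triggers transmitter release (P/Q and N type), signals to the nucleus (L type) or drives bursts near rest (T type). The Cacng family is named for the gamma subunit of muscle, but most brain members, the TARPs, are partners of AMPA-type glutamate receptors rather than of calcium channels.

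The 4 sodium channel pores of the cortex, Scn1a, Scn2a, Scn3a and Scn8a, are closely related, which bears on how reads can be told apart. Scn3a, Scn2a, Scn1a, Scn9a and Scn7a form a cluster on chromosome 2, and Scn8a lies on chromosome 15. Over all annotated transcripts, 3.12% of the 85-base stretches of Scn3a, 2.12% of Scn9a, 1.90% of Scn2a and 1.34% of Scn1a were also found in another gene, against 0 for Scn8a. For the other members the share was at most 0.31%, so most 85-base stretches belong to 1 gene. One window of Scn8a of 85 bases, the length of a read here, is shown because it carries the codons of the inactivation gate, the isoleucine-phenylalanine-methionine latch that closes a sodium channel after it opens. The codons of the latch are in capitals, in the coding sequence of exon 25 of a GENCODE M21 transcript, 5′ to 3′, and lie at chr15:101033493-101033501 (build GRCm38, plus strand).
Scn8a: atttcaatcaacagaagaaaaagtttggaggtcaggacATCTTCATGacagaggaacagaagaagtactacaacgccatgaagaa

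Deposited values summed, in units of 1e6, to 14.73 to 15.97 per library, which reflects normalization and not sequencing depth. Libraries differed in their levels of cell type markers. The female MO library PFC1 had the highest oligodendrocyte markers of the female table (sum over 5 genes, 4.62 times the table's median) and the highest markers of striatal projection neurons (9 genes, 2.61 times), with cortical excitatory markers at 0.712 times the median. The male SAL library PFC16 had the highest striatal markers of the male table, at 2.15 times its median. All 8 cortical excitatory markers were detected in every library. Over 11 marker lists and 2 sexes, MO and SAL differed at an unadjusted p under 0.05 for endothelial and mural markers in females alone (exact permutation test, 2-sided, p = 0.0325, 0.610 after Benjamini-Hochberg adjustment over 22 comparisons; 0.0606 without PFC1). Without PFC16, meningeal fibroblast markers were lower in MO males (exact permutation p = 0.0173 unadjusted, 0.0584 with it). In bulk tissue, fewer cells of a type and less RNA per cell cannot be told apart.

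Levels within each family were ordered by normalized counts per kb of annotated exons. Among the sodium channel pores, Scn2a, the main pore of cortical pyramidal axons early in life, stood at 828 per kb in males and 686 in females. Scn8a, which takes over the mature initial segment, stood at 377 and 320, and Scn1a, which is known for its role in inhibitory interneurons, at 193 and 161. Scn3a, the pore that prevails before birth, was lower, at 71.2 and 60.3. Of the summed per-kb level of the 7 sodium pores, Scn2a held 55.9% in males and 55.4% in females, Scn8a 25.5% and 25.9%, Scn1a 13% in each, and Scn3a 4.81% and 4.86%. Library ranges of these 4 genes did not overlap between neighbours in males, where the lowest Scn2a library had 751 per kb and the lowest Scn8a library 332. In females the ranges of Scn2a and Scn8a, and of Scn8a and Scn1a, overlapped through PFC1, the library with the lowest level of all 3. Pores known from other tissues were scarce. Scn7a was at 7.97 and 6.40 per kb and the sensory-neuron pore Scn9a at 1.12 and 0.790, the lowest of the pores, and the library ranges of these 2 genes did not overlap in either sex. Scn9a was listed at 0 in 1 library, the female SAL library PFC2.

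Of the sodium channel beta subunits, which join the pore and steer its gating and placement, Scn2b was at 1225 per kb in males and 1132 in females, Scn3b at 454 and 401, and Scn4b, which supports resurgent current and is abundant in striatum, at 93.0 and 91.0.

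Among the calcium channel pores, the presynaptic P/Q-type pore Cacna1a was the most abundant per kb (245 in males, 216 in females), followed by the T-type pore Cacna1i (179 and 163) and the N-type pore Cacna1b (143 and 122). The R-type pore Cacna1e (105 and 87.9) and the T-type pore Cacna1g (101 and 90.2) stood next to each other, with overlapping library ranges. The third T-type pore, Cacna1h, was at 61.4 and 54.9, and the neuronal L-type pores Cacna1c and Cacna1d at 57.2 and 48.2 and at 47.5 and 41.2. The muscle pore Cacna1s was low, at 3.12 and 3.05. Within the accessory groups, Cacnb3 (1400 and 1439 per kb) exceeded Cacnb1, Cacnb4 and Cacnb2 (120 and 107), and Cacna2d1 (534 and 453), whose protein binds gabapentin, exceeded Cacna2d3, Cacna2d2 and Cacna2d4 (4.95 and 4.63). In the Cacng family, Cacng7 (841 and 882) and Cacng3 (806 and 711) were highest and Cacng6 lowest (11.8 and 10.7).

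**Figure D1:**
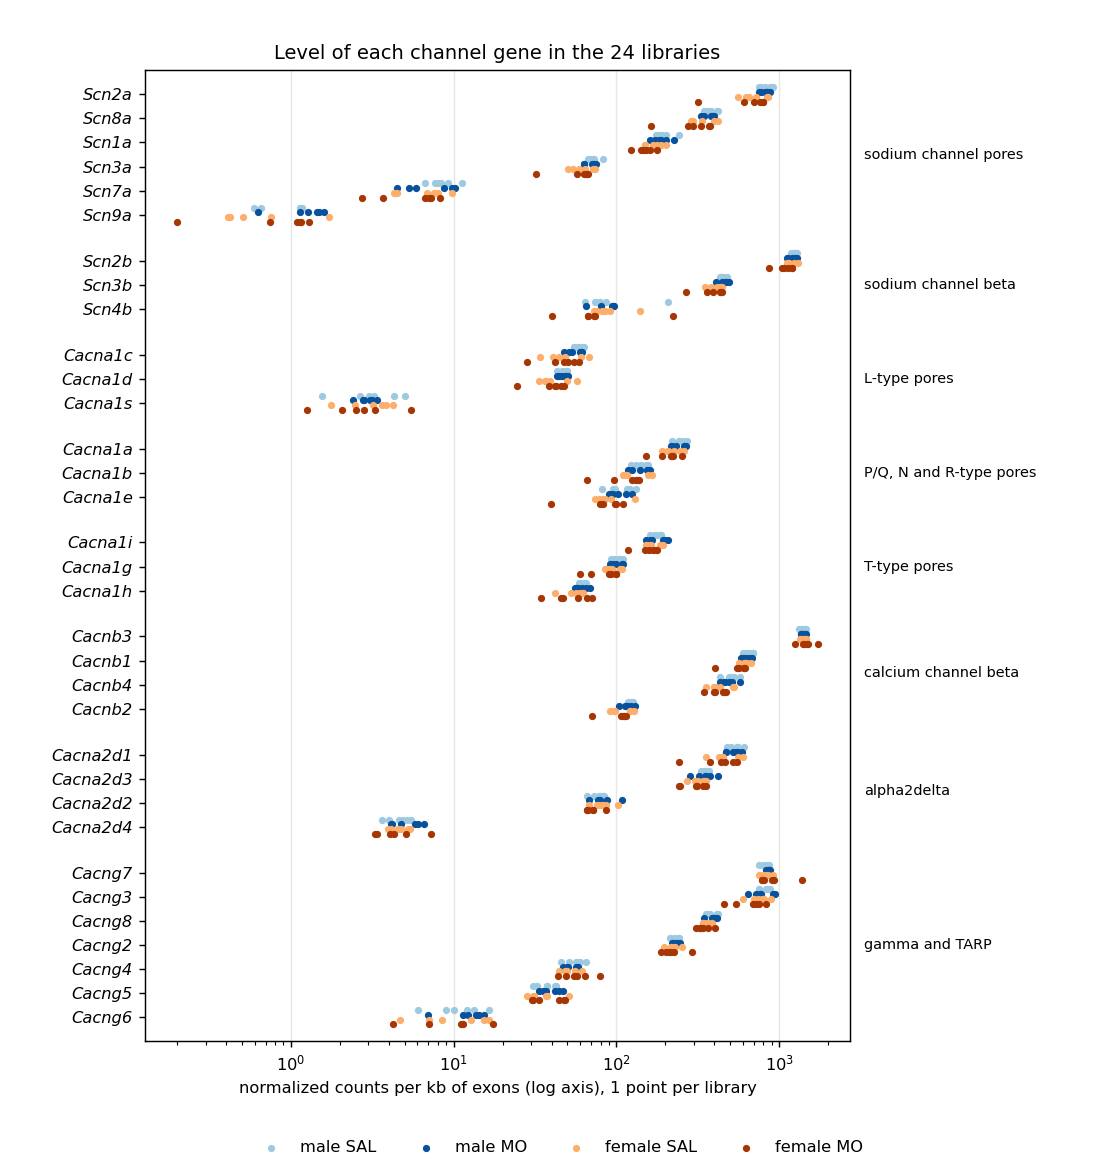
Normalized counts per kb of exons (log axis) of 33 of the 35 channel genes, 1 point per library, coloured by sex and treatment and grouped by role; the Scn9a value of 0 in PFC2 cannot be drawn on a log axis. Levels span from a male mean of 1.12 per kb for Scn9a to 1400 for Cacnb3. Within each gene the MO and SAL libraries of the same sex overlap, with single female MO and male SAL points set apart.

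Within a sex no channel gene passed the threshold between MO and SAL. In males 0 of 35 genes had an unadjusted limma p under 0.05, where 2.85% of the 16662 genes tested did. In females the count was also 0 of 35, against 2.93% of 16717 genes. Over both sexes, with sex as a term and no term for litter, 1 of 35 genes passed, Cacnb1, against 4.72% of 17303 genes. No member and no other gene had an adjusted p under 0.05 (limma, Benjamini-Hochberg over all genes tested) in any of these comparisons, and the smallest adjusted p of a member was 1.00 for males, 0.918 for females and 0.847 for both together.

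Estimates within the set were small and mostly below 0. In males 25 of 35 genes had a lower mean log2 level in MO than in SAL, with a median log2 fold change of -0.03, where 50.2% of all genes tested were lower. In females 30 of 35 were lower, with a median of -0.10, against 49.5% of all genes. Genes with a mean of at least 100 normalized counts, the level of most members, were lower in 51.3% of cases in males and 54.9% in females. The female count rested on PFC1: without this library 20 of 35 were lower and the median was -0.01. Scaling the female libraries to Gapdh and Ppia moved the median of all genes to 0.09. With this scaling 19 of 35 members were below 0, against 24.4% of all genes, and the median of the members was -0.01. Leaving PFC16 out of the males gave 20 of 35, and leaving PFC15 out gave 19 of 35. In both sexes 24 genes had negative estimates and 4 positive ones, and 7 differed in sign.

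How large a change the data could hide was read from the 95% intervals. In males 29 of 35 genes had an interval that lay within 0.5 log2 units of no change, and in females 24 did. The median standard error of the members was 0.06 in males and 0.13 in females, and over all genes tested it was 0.09 and 0.12.

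**Figure D2:**
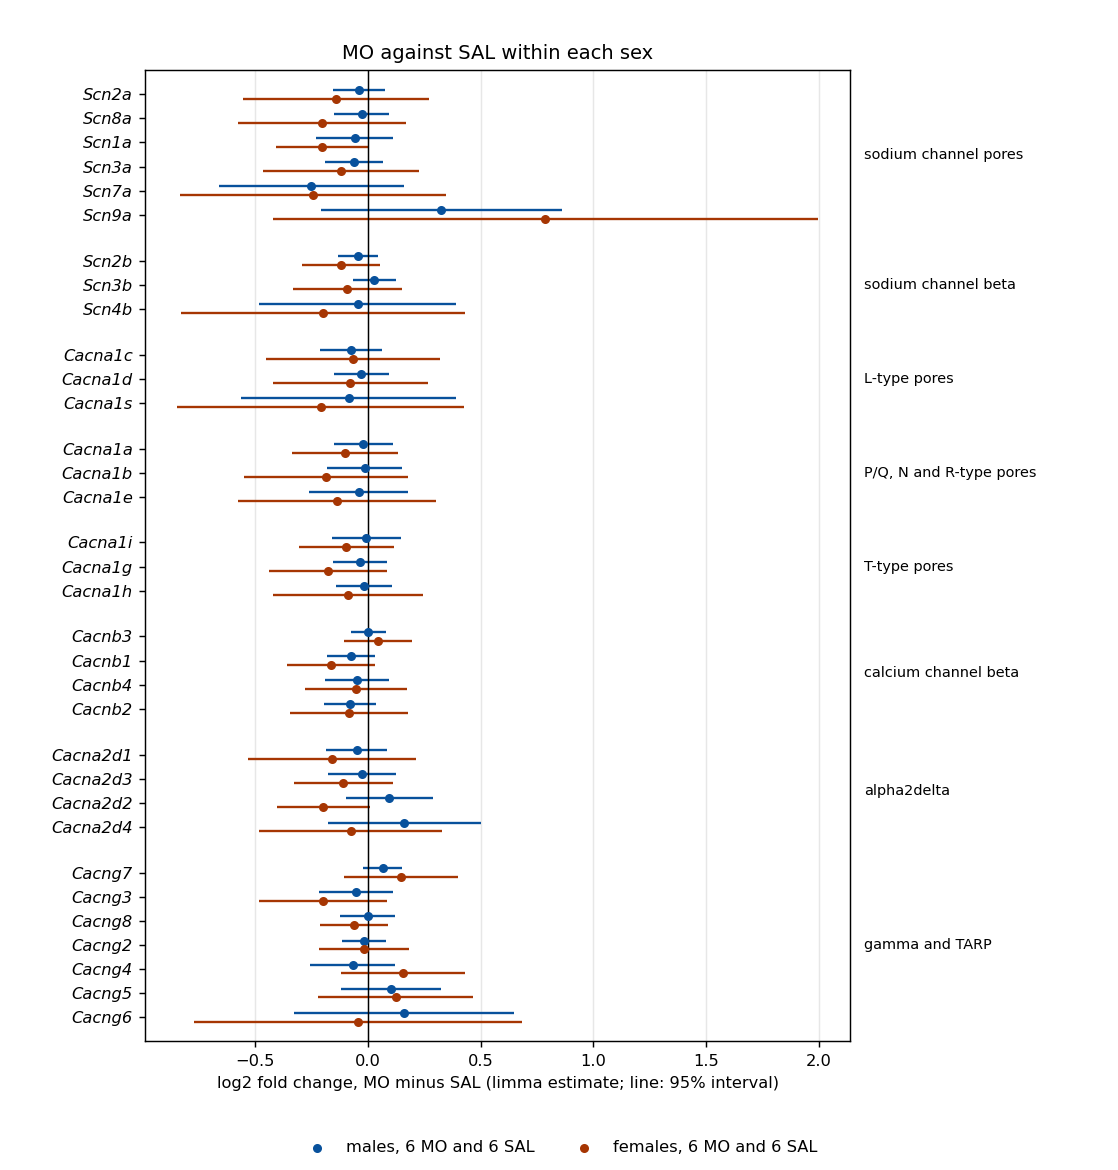
Limma log2 fold change of MO minus SAL for 33 of the 35 genes, males in blue and females in brown, with 95% intervals, 6 MO and 6 SAL libraries per sex. All intervals cross 0, the female ones are wider, and the widest belong to the scarce genes Scn9a and Cacng6.

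Among the sodium channel pores, Scn1a came closest to a change. In females its normalized counts were 1052 to 1522 (median 1263) in MO and 1274 to 1729 (median 1467) in SAL, a log2 fold change of -0.20 with a standard error of 0.10 (limma, p = 0.0514, adjusted p = 0.918; exact permutation p = 0.0823). The groups overlapped, and the SAL mean was exceeded by 1 of 6 MO libraries. In males Scn1a was 1378 to 1918 (median 1578) in MO and 1486 to 2083 (median 1609) in SAL, a log2 fold change of -0.06. Without PFC1 the female difference was -0.15 (exact permutation p = 0.165), and the unadjusted limma threshold was passed without any one of PFC4, PFC6, PFC8 or PFC21. Over both sexes it was -0.13 (permutation within sex, p = 0.0862).

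For Scn2a the males ranged from 6839 to 8027 (median 7502) in MO and from 6817 to 8370 (median 7727) in SAL, a log2 fold change of -0.04 with an interval of -0.15 to 0.08. In females MO ran from 2889 to 7249 (median 6674) and SAL from 5063 to 7723 (median 6258). The low end of the MO range was PFC1 and the next MO library stood at 5486, so the MO median lay above the SAL median while the mean difference was -0.14 (interval -0.55 to 0.27). Without PFC1 the difference was 0.06.

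Scn8a was likewise lowest in PFC1. Female MO libraries ran from 2001 to 4639 (median 3876) and SAL from 3566 to 5174 (median 3911), with a log2 fold change of -0.20 (interval -0.58 to 0.17), or -0.03 without PFC1. Male MO libraries ran from 4096 to 4932 (median 4753) and SAL from 4281 to 5168 (median 4613), with -0.03 (interval -0.15 to 0.10). Scn3a, the early pore, was 610 to 725 in MO males and 645 to 801 in SAL males (medians 699 and 697), and 310 to 649 in MO females and 489 to 713 in SAL females (medians 623 and 597). Its log2 fold changes were -0.06 in males and -0.12 in females, the latter 0.05 without PFC1. Groups overlapped for both genes in each sex.

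The scarce pores gave wide intervals. Scn9a was at 6.27 to 15.99 normalized counts in MO males and 5.97 to 11.8 in SAL males, and at 2.02 to 13.05 in MO females and 0 to 17.3 in SAL females. Its log2 fold change over both sexes was 0.56 (permutation within sex, p = 0.121), the largest estimate of the set at its lowest level. It was 0.70 without PFC1 and 0.71 without PFC7, both past the unadjusted limma threshold, and 0.31 without PFC2, which was not. Scn7a had an estimate of -0.25 over both sexes, with a permutation p within sex of 0.210.

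Scn8a and Scn1a are known to rise in postnatal cortex. Scn3a is known to be higher early, and Scn2a is the main pore of cortical pyramidal axons early in life. The ratios of Scn8a to Scn2a and of Scn1a to Scn3a within a library, which do not depend on how libraries were scaled, were therefore compared. In bulk tissue a ratio can also follow the mix of cell types, which was not tested. The log2 ratio of Scn8a to Scn2a, in normalized counts, was -0.69 ± 0.06 (SD, n = 6) in MO males and -0.70 ± 0.04 in SAL males. In MO females it was -0.68 ± 0.11 and in SAL females -0.62 ± 0.07. The differences, 0.01 in males (95% interval -0.06 to 0.08) and -0.06 in females (-0.18 to 0.06), were within the spread of the libraries (exact permutation p = 0.740 and 0.277, both 0.978 after adjustment over 4 ratios). The Scn1a to Scn3a ratio was 1.24 ± 0.19 in MO males and 1.24 ± 0.11 in SAL males, and 1.21 ± 0.28 in MO females and 1.29 ± 0.19 in SAL females (exact permutation p = 0.978 and 0.530). The 95% interval of the difference was -0.19 to 0.20 in males and -0.40 to 0.23 in females. The female values moved over 14 alternatives, among them leaving out each library. The Scn1a to Scn3a difference ran from -0.20 to -0.02 (exact permutation p from 0.0606 to 0.920). That of Scn8a to Scn2a ran from -0.09 to -0.04 (exact permutation p from 0.0931 to 0.506). For both ratios the lower end was the value without PFC1.

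**Figure D3:**
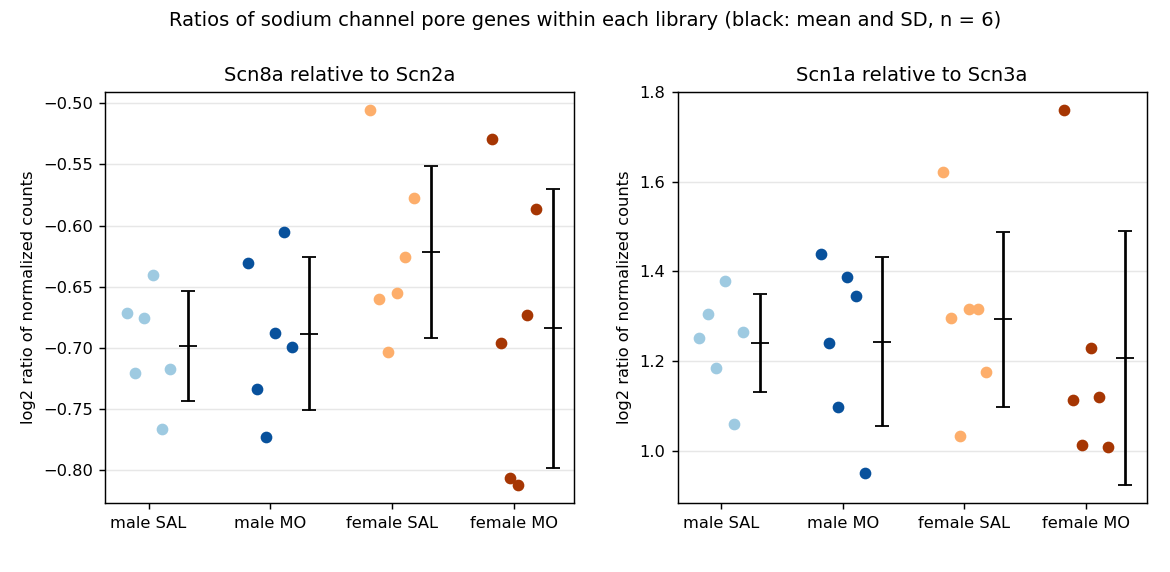
Log2 ratio of normalized counts of Scn8a to Scn2a and of Scn1a to Scn3a in each library, by sex and treatment, with the mean and SD of 6 libraries in black beside the points. MO and SAL points overlap within each sex for both ratios, and the highest Scn1a to Scn3a ratio of the female MO group, 1.76, is PFC1.

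Of the beta subunits, Scn2b and Scn3b kept to narrow ranges in males. Scn2b was 5226 to 5976 in MO and 5534 to 6030 in SAL males, and 4055 to 5604 in MO and 5179 to 6053 in SAL females. Males differed by -0.04 on the log2 scale and females by -0.12, with -0.08 when the sexes were fitted together (permutation within sex, p = 0.0732). Scn3b differed by 0.03 in males (1850 to 2213 in MO, 1963 to 2153 in SAL) and by -0.09 in females (1211 to 2029 in MO, 1596 to 2019 in SAL). Without PFC1, the lowest female library for both genes, the female differences were -0.06 for Scn2b and 0.01 for Scn3b.

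Scn4b varied more between libraries than any other member with a mean above 100 normalized counts, with a coefficient of variation of 41.0% in males and 52.0% in females. In females MO libraries had 201 to 1106 (median 350) and SAL libraries 365 to 701 (median 417). Of the 6 MO libraries, 5 lay between 201 and 367 and the sixth, PFC1, at 1106. In males MO libraries had 325 to 481 (median 473) and SAL libraries 322 to 1039 (median 386), the highest being PFC16 with the next SAL library at 433. With every library in, the log2 fold change was -0.04 in males (exact permutation p = 0.942) and -0.20 in females (p = 0.628).

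The Scn4b comparison depended on those 2 libraries, which were singled out after their values were seen. Without PFC1 the female log2 fold change was -0.50 with a standard error of 0.17 (321 ± 68.6 in MO, SD, n = 5, and 456 ± 125 in SAL, n = 6), with a limma p of 0.0104 (adjusted p = 1.00) and an exact permutation p of 0.0130. In that fit 2.26% of 16590 genes had an unadjusted p under 0.05. Without PFC16, where 2.45% of 16579 genes passed and 0 of 35 members did, the male log2 fold change was 0.20 with a standard error of 0.10 (438 ± 63.1 in MO, n = 6, and 379 ± 40.9 in SAL, n = 5; exact permutation p = 0.130). The difference between the sexes, females minus males, was -0.70 in log2 units with both libraries out (limma interaction, standard error 0.22, adjusted p = 1.00) and -0.15 with all 24 libraries. The former passed the unadjusted threshold, as did 2.1% of 17212 genes, and the latter did not.

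Striatal markers moved with Scn4b across libraries. Of the marker lists only this one was set against Scn4b, so whether the link is particular to it was not tested. PFC1, the highest female library in Scn4b, also had the highest oligodendrocyte markers of its table. PFC2, next at 701, had striatal markers at 1.22 and oligodendrocyte markers at 2.04 times the table's median. Over the 12 male libraries the log2 level of Scn4b and the log2 summed level of 9 striatal genes (among them Drd1, Drd2, Adora2a, Rgs9, Ppp1r1b, Pde10a, Penk and Tac1) had a Pearson r of 0.89 (permutation p = 0.00077, adjusted over 2 sexes 0.00154) and a Spearman rho of 0.67 (permutation p = 0.0204, adjusted 0.0409). Over the 12 female libraries r was 0.82 (permutation p = 0.00419, adjusted 0.00419) and rho 0.58 (permutation p = 0.0511, adjusted 0.0511). Leaving out the 2 libraries farthest from the median of the marker sum, PFC13 and PFC16 in males and PFC1 and PFC4 in females, lowered r to 0.65 (permutation p = 0.0418) and 0.67 (p = 0.0454), with rho at 0.55 (p = 0.105) and 0.48 (p = 0.168). Without those libraries the rank correlation did not pass over 10 libraries, and in females it had not passed over all 12. The suffix combined stands on the columns of 11 libraries and is not explained in the sources used here. Within the 9 males not marked combined r was 0.91 (permutation p = 0.00293) and rho 0.78 (permutation p = 0.0169). Within the 8 females marked combined r was 0.86 (permutation p = 0.00313) and rho 0.83 (permutation p = 0.0156). The other 3 males and 4 females were too few for a value.

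Summed striatal markers ranged from 3194 to 5875 in MO and 3406 to 8400 in SAL males, and from 3468 to 9709 in MO and 3549 to 4624 in SAL females, with all 9 genes detected in every library. Without PFC1 the female MO and SAL sums differed with an exact permutation p of 0.160. The part of striatal tissue in the Scn4b values was not tested. By Pearson r of log2 level over 12 libraries, 11837 genes whose mean reached 50 being compared, the genes most like Scn4b in males were Kcna1 (0.94), Pcp4l1 (0.91), Pde10a (0.90), Rasd2 (0.90) and Adcy5 (0.89). Among 11866 genes in females the leading ones were Rasd2 (0.90), Vamp1 (0.88), Gbp3 (0.88) and Tesk2 (0.87), so Rasd2 stood in both lists. Pde10a is itself one of the 9 striatal genes.

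**Figure D4:**
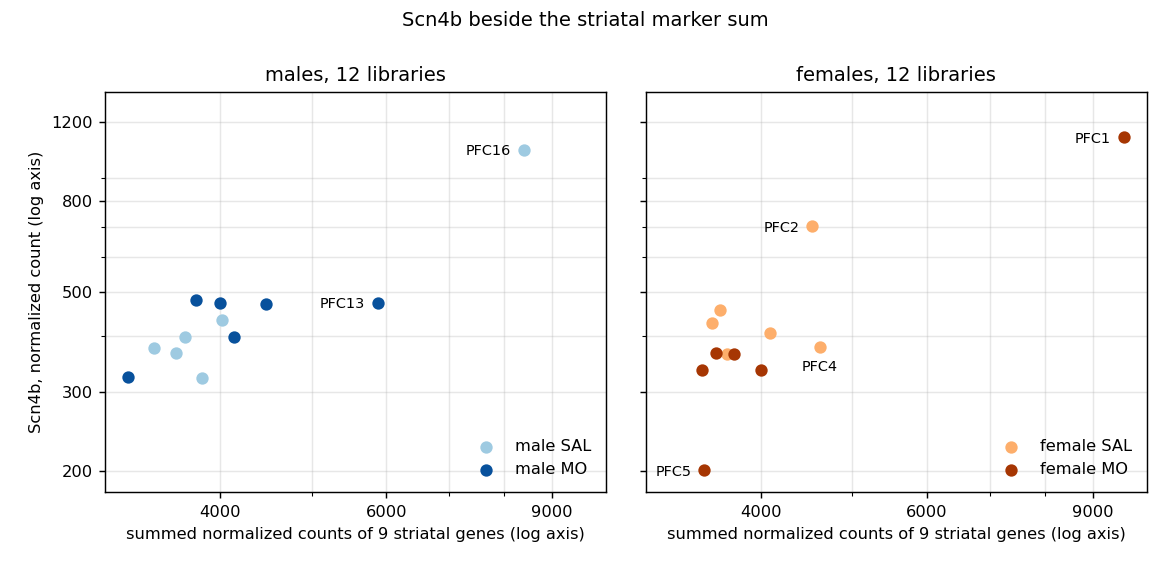
Normalized count of Scn4b against the summed normalized counts of 9 striatal genes in each library, both on log axes, males left and females right, coloured by treatment. PFC16 (1039) and PFC1 (1106) sit at the upper right of their panels, and the female MO libraries other than PFC1 lie at 201 to 367.

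No calcium channel pore passed the unadjusted threshold within a sex. In males the log2 fold changes of Cacna1a, Cacna1b, Cacna1c, Cacna1d, Cacna1e, Cacna1g, Cacna1h and Cacna1i ran from -0.07 (Cacna1c) to -0.01 (Cacna1i), and in females from -0.18 (Cacna1b) to -0.07 (Cacna1c). Without PFC1 the female values ran from -0.08 (Cacna1g) to 0.07 (Cacna1c), and those of Cacna1c, Cacna1d, Cacna1e and Cacna1h were above 0. The P/Q-type pore Cacna1a had 1707 to 2120 normalized counts (median 1959) in MO and 1748 to 2141 (median 1937) in SAL males, with a 95% interval of -0.15 to 0.11. In females it had 1208 to 2007 (median 1725) in MO and 1513 to 2074 (median 1711) in SAL, with an interval of -0.34 to 0.13. PFC1 was again the lowest MO library.

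The N-type pore Cacna1b, a site of inhibition by opioid receptors through G proteins, had 1160 to 1574 (median 1442) in MO and 1210 to 1521 (median 1443) in SAL males. In females it had 643 to 1342 (median 1250) in MO and 1075 to 1617 (median 1114) in SAL. The log2 fold changes were -0.01 (interval -0.18 to 0.15) and -0.18 (-0.55 to 0.18), and in females the medians pointed the other way. R-type Cacna1e ran from 1366 to 1900 in MO and 1239 to 2000 in SAL males, and from 609 to 1671 in MO and 1135 to 1990 in SAL females.

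L-type Cacna1c, which couples synaptic activity to transcription, had 721 to 942 (median 864) in MO and 834 to 963 (median 900) in SAL males. In females it had 430 to 894 (median 751) in MO and 514 to 1031 (median 708) in SAL. Its log2 fold changes were -0.07 in both sexes (exact permutation p = 0.318 and 0.764). Cacna1d, the L-type pore that opens at lower voltage, ran from 389 to 455 in MO and 386 to 450 in SAL males, and from 222 to 428 in MO and 300 to 517 in SAL females.

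The T-type pores were as even. Cacna1g had 781 to 933 in MO and 790 to 939 in SAL males, and 506 to 849 in MO and 726 to 926 in SAL females, with log2 fold changes of -0.03 and -0.18 (exact permutation p = 0.580 and 0.251). Cacna1h had 458 to 569 in MO and 488 to 538 in SAL males, and 285 to 582 in MO and 347 to 515 in SAL females. Cacna1i had 1484 to 2031 in MO and 1582 to 1850 in SAL males, and 1147 to 1748 in MO and 1485 to 1885 in SAL females.

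Among the accessory subunits, Cacnb1 was the 1 member past an unadjusted p of 0.05 over both sexes. It encodes a cytoplasmic beta subunit, which helps calcium channel pores reach the membrane. MO males had 2360 to 2748 normalized counts (median 2499) and SAL males 2409 to 2804 (median 2701). MO females had 1637 to 2484 (median 2362) and SAL females 2298 to 2718 (median 2492). The groups overlapped in both sexes, with 2 of 6 male and 0 of 6 female MO libraries over the mean of SAL. The log2 fold change was -0.12 over both sexes with a standard error of 0.05 (limma p = 0.0351, adjusted p = 0.847; permutation within sex, p = 0.0217), from -0.07 in males and -0.16 in females. Without PFC1 and PFC16 it was -0.07 and no longer passed, and 3.14% of 17212 genes did. Leaving out any one of PFC4, PFC9, PFC13, PFC14, PFC15, PFC16 or PFC24 also took it out of the call, with unadjusted values of 0.0505 to 0.0643.

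The remaining beta subunits did not pass. Cacnb3 was the steadiest member in males, at 4009 to 4335 in MO and 3947 to 4342 in SAL (log2 fold change 0.00, interval -0.07 to 0.08). In females it was at 3731 to 5105 in MO and 4005 to 4317 in SAL, PFC1 being the highest. Cacnb2, the least abundant beta subunit per kb, had 502 to 631 in MO and 568 to 614 in SAL males, and 341 to 549 in MO and 440 to 619 in SAL females. Its log2 fold changes were -0.08 and -0.08. Cacnb4 differed by -0.05 in each sex.

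Of the alpha2delta subunits, which carry the channel to the presynaptic membrane, Cacna2d2 had opposite signs in the sexes, a difference that passed before adjustment and not after it. MO males had 398 to 634 normalized counts (median 459) and SAL males 386 to 491 (median 459). MO females had 384 to 505 (median 403) and SAL females 399 to 598 (median 465). The log2 fold change was 0.10 in males (exact permutation p = 0.429) and -0.20 in females (limma p = 0.0589, exact permutation p = 0.0801). The interaction, females minus males, was -0.29 with a standard error of 0.14 (limma, adjusted p = 1.00, 0.0451 before adjustment). It was the 1 of 35 members past 0.05 in that test, where 2.1% of 17303 genes passed. The call was lost in 17 of 34 other fits, for instance without PFC10 (-0.21), the male MO library with 634 counts. Cacna2d1 had 3931 to 4937 in MO and 4008 to 5079 in SAL males, and 2036 to 4605 in MO and 2987 to 5029 in SAL females. Its log2 fold changes were -0.05 and -0.16, the latter 0.00 without PFC1. Cacna2d4, the lowest per kb, had 23.96 to 38.01 in MO and 21.2 to 31.7 in SAL males, and 19.0 to 42.1 in MO and 23.1 to 31.6 in SAL females.

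The Cacng genes split in sign. Cacng7, the highest of the family per kb, had 1839 to 1946 normalized counts (median 1912) in MO males and 1663 to 1920 (median 1825) in SAL males, a log2 fold change of 0.07 (limma p = 0.117, exact permutation p = 0.0498). All 6 MO males exceeded the mean of SAL, and the groups overlapped. In females it had 1729 to 3071 (median 1903) in MO and 1657 to 2019 (median 1831) in SAL, with PFC1 at 3071 and the next MO library at 2071. Cacng6, the lowest, had 13.8 to 30.2 in MO and 11.97 to 32.8 in SAL males, and 8.43 to 34.8 in MO and 9.25 to 32.8 in SAL females. Of the TARPs other than Cacng7, Cacng2 (stargazin) differed by -0.02 in both sexes, Cacng8 by 0.00 and -0.06, and Cacng3 by -0.05 and -0.20. Cacng4 differed by -0.07 in males and 0.16 in females, and Cacng5 by 0.10 and 0.12. None of these had a p under 0.15 within a sex.

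The library PFC1 departed from the others in most of the set. Against the 11 other female libraries, 22 of 35 genes were below all of them and 5 were above all of them. Pores led the low side. Scn7a was at 20.2 against 26.9 to 71.7 in the others, a log2 deviation of -1.32 from their median. Scn2a was at 2889 against 5063 to 7723 (-1.18), and Cacna1e at 609 against 1135 to 1990 (-1.10). Scn8a was at 2001 against 3386 to 5174 (-1.04) and Scn3a at 310 against 489 to 713 (-1.001). Those above all others included Scn4b (log2 deviation of 1.59), Cacng7 (0.76), Cacng4 (0.68) and Cacnb3 (0.28).

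Transcript length moved with this pattern. In PFC1 the 18 members with at least 6411 bases of exons had a median deviation of -0.75 log2 units from the table's median, and the 17 shorter ones -0.11. The longer members were all the pore genes with Cacna2d1 and Cacnb4, and the pore genes alone also had a median of -0.75. Among the members, length and pore role therefore cannot be told apart. Among all genes whose mean reached 100, 1756 of that length had a median of -0.28 and 8758 shorter ones -0.04. Of the members 48.6% lay more than 0.5 log2 units below the table's median in PFC1, against 13.5% of all genes with a mean of at least 100. The part of oligodendrocyte and striatal RNA and of transcript length in this pattern was not tested.

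**Figure D5:**
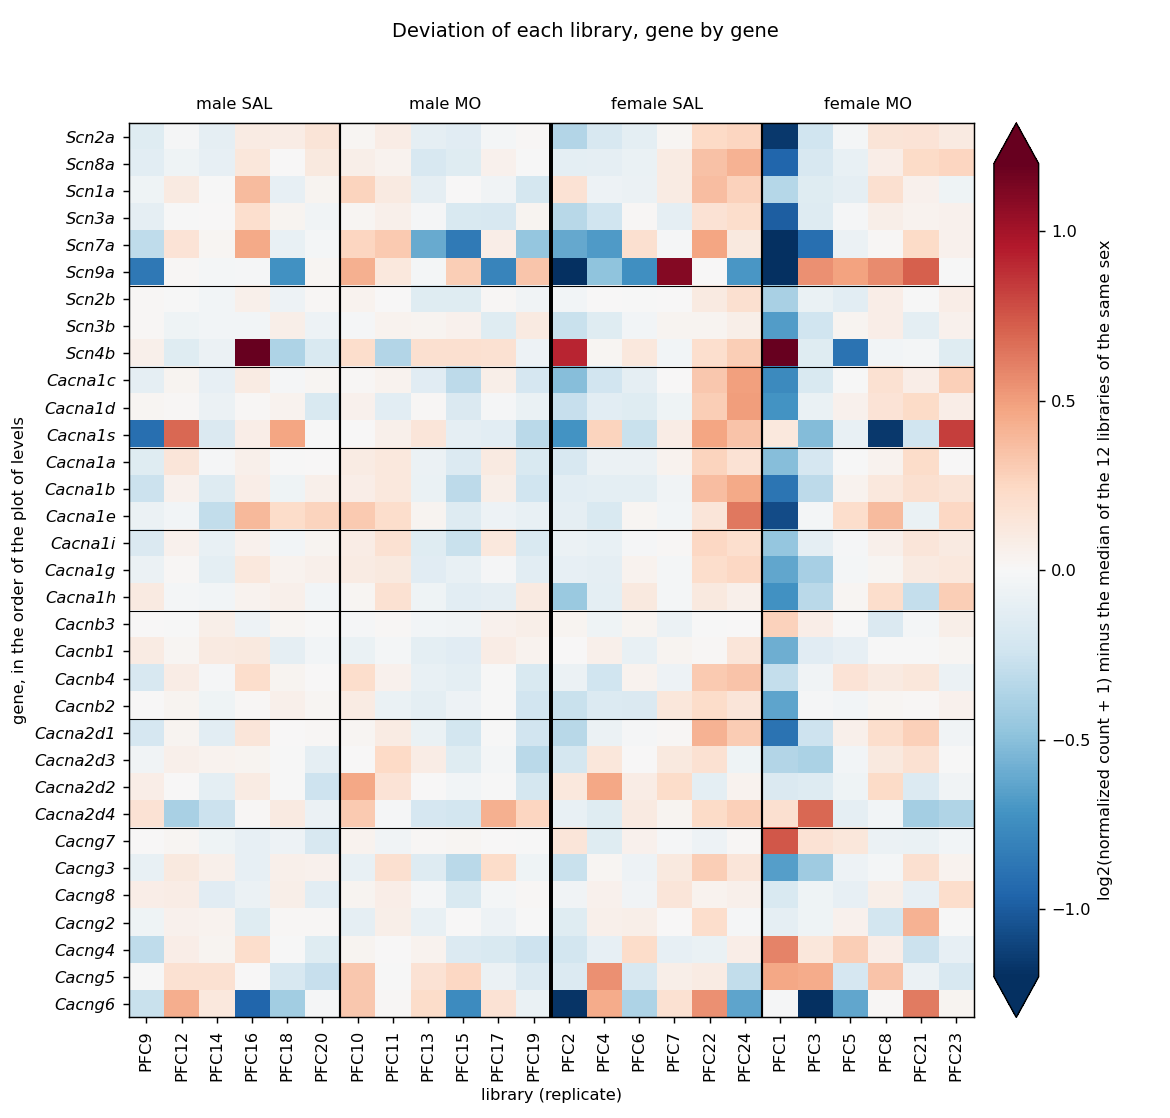
Heat map of log2(normalized count + 1) minus the median of the 12 libraries of the same sex, 33 of the 35 genes by 24 libraries, with blue below and red above the median and colours capped at 1.2 log2 units. The female MO library PFC1 is blue over most pore genes and red at Scn4b, Cacng7 and Cacng4, the female SAL libraries PFC22 and PFC24 are red over the pores, and the male SAL library PFC16 is red at Scn4b.

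Libraries also differed by the suffix combined, in opposite directions in the sexes. In females 27 of 35 members were lower in the 8 libraries marked combined than in the 4 others, with a median log2 difference of -0.23, where 51.8% of all genes tested were lower. Of genes with a mean of at least 100 normalized counts, 56.7% were lower. PFC1 is among the 8 combined libraries. In males 7 of 35 were lower in the 3 combined libraries than in the 9 others, with a median of 0.04, where 49.3% of all genes and 51.1% of those with a mean of at least 100 were lower. The suffix was balanced over treatments in females (4 of 6 in each) and nearly so in males (2 of 6 MO, 1 of 6 SAL). With a term for it in the female fit, Scn1a and Cacna2d2 passed the unadjusted limma threshold at the same estimates. Within the 8 combined females the Scn1a difference was -0.14 and within the 4 others -0.32, and that of Cacna2d2 was -0.26 and -0.07. For Cacnb1 it was -0.21 and -0.08 in females, and -0.15 (2 MO and 1 SAL) and -0.05 (4 MO and 5 SAL) in males. Within the combined males Scn1a differed by 0.24 and within the others by -0.17.

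Genes that act with these channels were read from 4 lists, initial segment and sodium channel partners, calcium channel regulators, calcium stores with pumps and exchangers, and the NALCN leak channel complex. Of 50 listed genes 48 were tested. In males 0 passed an unadjusted p of 0.05, in females 1 was higher and 0 lower, and over both sexes 1 was higher and 1 lower, with none past an adjusted p of 0.05 (limma). Of all genes tested 2.85%, 2.93% and 4.72% passed the unadjusted threshold, so the counts for these lists are near the background, and the 2 genes are given for their values alone. Median log2 fold changes over the 48 genes were -0.03 in males and -0.07 in females. The gene that was higher was Itpr2, a calcium release channel of the endoplasmic reticulum. It had 351 ± 60.8 normalized counts in MO and 286 ± 27.3 in SAL females (SD, n = 6), a log2 fold change of 0.29 with a standard error of 0.11 (limma p = 0.0189, adjusted p = 0.918, exact permutation p = 0.0303). In males Itpr2 had 317 ± 33.8 and 302 ± 30.8 (exact permutation p = 0.435), and over both sexes the log2 fold change was 0.18. Without PFC1 the female value was 0.22, still past the unadjusted threshold. Trim46, which organizes microtubules at the initial segment, was lower over both sexes by a log2 fold change of -0.07 with a standard error of 0.03 (limma, adjusted p = 0.847). It had 1107 ± 51.6 in MO and 1184 ± 37.7 in SAL females (limma p = 0.0845, exact permutation p = 0.0152). In males Trim46 had 1161 ± 81.2 and 1196 ± 35.8 (exact permutation p = 0.366). Without PFC1 the value over both sexes was -0.06 and did not pass.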

How the data were processed

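RNA from mPFC of 24 offspring was poly-A enriched, made into directional libraries and read as single reads of 85 bases. The authors aligned reads to mm10 (RefSeq) with STAR, quantified with Salmon and normalized with DESeq2, in a separate run for each sex. The deposited values are a signal, normalized counts that are not whole reads, so read depth is unknown and no counting interval can be given. From them, log2(normalized count + 1) was fitted with limma 3.58.1 in R 4.3.3 (trended empirical Bayes, genes with a sum of at least 10, Benjamini-Hochberg over all genes tested). Single values were also tested by exact permutation over 924 relabellings (462 with 1 library left out), 2-sided, and over both sexes by 100000 permutations within sex. The limma code was tested on simulated data. Exon lengths came from GENCODE M21 (GRCm38).

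The channel genes, lists and tests were chosen with earlier results of these data known. Values are given in full for pore genes of the brain, sodium channel beta subunits, members with an unadjusted p under 0.05, the most and least abundant accessory subunits, genes among the 5 most like Scn4b, and partners past that p. Others were named after their values were seen. Of the 35 genes, 2 enter every count and their own values are not reported here. Alternatives were other pseudocounts (0.5 and 5), filters, scalings, array weights, no trend, a term for libraries marked combined, and leaving out each library.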

Additional observations from a re-analysis of the deposited data

Results flagged for a closer look

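The 22 genes given in full by the naming rule, part of which uses their values, make 88 groups of 6 libraries by sex and treatment, of which 12 held a library whose gap to its neighbour exceeded Dixon's limit for 6 values, where chance gives about 1 in 20 (4.4 groups). Most of these are 1 library, the female MO library PFC1. It was the lowest of its group for Scn2a (2889 normalized counts, next 5486), Scn3a (310.3), Scn8a (2001), Cacna1d (221.5), Cacna1e (609), Cacnb1 (1637) and Cacnb2 (341), and the highest for Scn4b (1106, next 367) and Cacng7 (3071, next 2071).

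The male SAL library PFC16 stood apart for Scn4b (1039, next 433), the female SAL library PFC2 for Scn4b (701), and the male MO library PFC15 for Cacng6 (13.8). The MO minus SAL difference of Cacna2d2 differed between the sexes, by -0.29 log2 units (females minus males, limma interaction, unadjusted p = 0.0451, adjusted p = 1.00).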

How the results depend on the processing

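No member passed an adjusted p of 0.05 (limma, Benjamini-Hochberg) in any comparison or alternative. The count of members at an unadjusted p under 0.05 moved. In females it was 0, but 2 with a term for combined libraries (Scn1a, Cacna2d2) and 1 with array weights (Scn4b). Over both sexes it was 1, but 0 after scaling to Gapdh and Ppia. The interaction count of 1 became 0 with equal sums, with scaling to Gapdh and Ppia and with no trend, all 3 chosen after seeing the data. With 1 library left out in turn the counts ranged from 0 to 1 in males, 0 to 2 in females, 0 to 2 over both sexes and 0 to 1 for the interaction. Males gained Cacnb2 without PFC10 and Scn9a without PFC17. Females gained Scn4b without PFC1, Scn1a without PFC4, PFC6, PFC8 or PFC21, and Cacna2d2 without PFC8 or PFC22. Over 3847 refits of single members, 3798 kept their side of the unadjusted threshold, 23 newly passed and 26 no longer passed. The sign changed in 255 refits, none of them past the threshold before or after, among them 31 of 105 without PFC1, 20 of 70 without PFC1 and PFC16, 33 of 140 with array weights and 31 of 140 with scaling to Gapdh and Ppia. The cause was not tested. The 4 ratios stayed on the same side of the threshold in the 14 alternatives run for each, with a change of sign in 8 refits, all in males. No paired analysis was possible because the groups share no replicate numbers.

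Read depth is unknown, so the scarce genes cannot be given counting limits. Cells of different types were not separated, and litter could not enter the fits.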
